A study of Canis lupus familiaris with 6 samples.

Results

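The genes described here encode the killing machinery of natural killer (NK) cells and cytotoxic T cells and the receptors that set it off, and they were followed in the whole blood of adult Beagle dogs. The members were 10 gene symbols, 9 of which name a gene in the deposited table of 31512 genes: PRF1, GZMA, GZMB, GZMK, CTSW, KLRD1, KLRB1, KLRK1 and NCR3. No gene in the table carries the symbol NKG7. A gene without a symbol is described there as the NKG7 protein, and its values are given beside those of the members but are not counted with them.

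The study fed healthy Beagles of 1.5 years a maintenance food and 30 g of a daily snack, either without a supplement (control group) or containing 0.03% CPP-Se (CPP-Se group), which is selenium chelated by casein phosphopeptides. Blood RNA was sequenced on day 30 from 3 control dogs and 3 CPP-Se dogs out of 12 dogs in the trial, as 1 library per dog. The values are FPKM, the fragments on a gene scaled by its length and by a size set for each library, as the authors deposited them.

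Cytotoxic lymphocytes store perforin and granzymes in secretory granules. When such a cell meets its target, the granules fuse with the membrane, perforin forms pores, and the granzymes, which are serine proteases, enter the target and start cell death. In NK cells and in part of the T cells, this release is controlled by receptors such as the C-type lectin-like proteins of the KLR family and the natural cytotoxicity receptors. Most circulating cytotoxic lymphocytes carry several of these genes at once, and blood RNA adds up every cell type, so fewer cells of a type and less RNA per cell cannot be told apart in these data.

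The libraries held between 6598173 and 8067034 reads on genes, recovered from the FPKM. Of these, 8 hemoglobin genes took 48.7% to 55.9%, except in CPP-Se replicate 2, where they took 36.6%. The size by which the FPKM of CPP-Se replicate 2 were scaled was 1.65 times its reads on genes, against 0.882 to 1.05 times in the other 5 dogs. Every level of that dog is therefore lower than its gene reads alone would give. In some dogs this size was below the reads on genes, so it is not a plain total of the reads. On this deposited scale the typical gene was level between the dogs, with median-of-ratios factors of 1.01 to 1.02 in all 6. Values that had already been scaled by such factors would give this result too, so it does not tell which scale is right. Some levels of the members in CPP-Se replicate 2 are therefore also given scaled to the same number of reads on genes, an alternative chosen after seeing the data and called the equal-reads scale. The members were rare transcripts against this background, with 0 to 353 reads per dog. Their summed level was 27.5, 46.1 and 20.6 FPKM in control replicates 1, 2 and 3 and 79.6, 49.8 and 84.3 FPKM in CPP-Se replicates 1, 2 and 3. The sums of the groups did not overlap, and control replicate 2 and CPP-Se replicate 2 were the nearest. On the equal-reads scale, their sums were 43.0 and 82.3, and CPP-Se replicate 2 then had the highest sum of the 6 dogs. Among the defining NK genes outside the members, 2 were looked at after the members' values had been seen. NCR1, the receptor NKp46, was at 0.112 to 0.478 FPKM in the control dogs and 0.498 to 0.952 FPKM in the CPP-Se dogs, and KLRF1, the receptor NKp80, was at 0 in all 6 dogs. Scaled to the same reads on genes, the NCR1 values overlapped. Both were under the filter described next.

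The test was run by limma on log2(FPKM + 1) in the 9847 genes that averaged 1 FPKM or more over the 6 dogs, and p-values were adjusted over all of them by the Benjamini-Hochberg method. To be called, a gene needed an adjusted p below 0.05 together with a difference of 1.5-fold or more. Of all genes tested, 3 were called (0.0305%), all lower in the CPP-Se group. This direction depended on the scaling, with 8 higher and 4 lower genes called when the dogs had the same total FPKM and 16 higher and 7 lower when they had the same reads on genes. At an unadjusted p under 0.05, 676 genes (6.87%) were higher and 896 genes (9.10%) were lower in the CPP-Se group. The 3 CPP-Se dogs lay above all control dogs in 10.4% of the genes tested and below them in 12.6%.

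Of the 9 members, 8 passed the filter, and KLRB1 did not. All 9 had a higher mean level in the CPP-Se group, with log2 fold changes of 0.48 to 1.31 in the 8 tested. None of the 8 was called, and their adjusted p from limma lay between 0.138 and 0.509. Before adjustment, PRF1, GZMK and CTSW passed 0.05, which is 3 of the 8, against 6.87% of all genes in that direction. With the dogs scaled to the same total FPKM, NCR3 and KLRD1 passed as well, which made 5 of the 8, against 6.67% of all genes under that scaling. The groups did not overlap in PRF1, GZMK and CTSW, against 10.4% of all genes tested, nor in KLRB1, which is outside that share. In each of the other 5 members, 2 of the 3 CPP-Se dogs lay above every control dog. The share of all genes with this weaker pattern was not counted. The median log2 fold change of the 8 members was 0.90, beside -0.0043 over all genes tested.

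**Figure D1:**
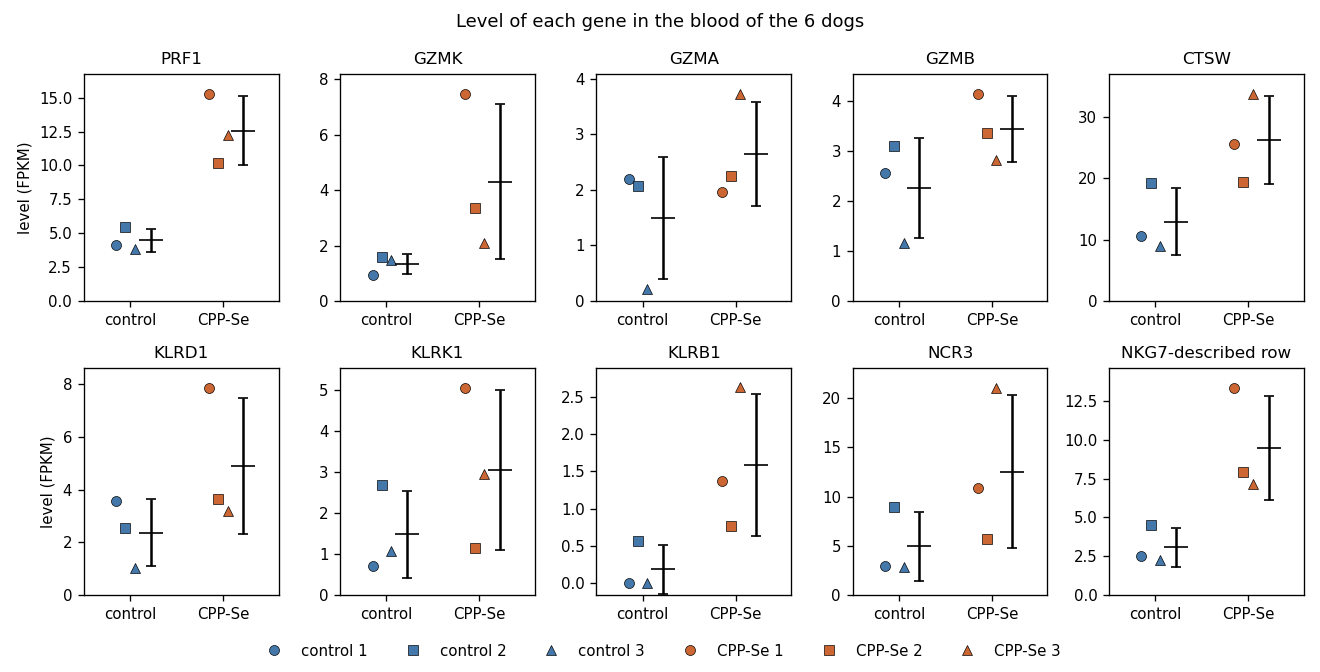
Level in FPKM (vertical axes, each with its own scale) of the 9 members and of the unnamed gene described as NKG7 in the 3 control dogs (blue) and the 3 CPP-Se dogs (orange), with the replicate number as the marker shape and the group mean ± SD beside the points. PRF1, GZMK, CTSW, KLRB1 and the NKG7-described gene show no overlap between the groups, and CTSW only just so, with 19.2 FPKM in control replicate 2 and 19.4 FPKM in CPP-Se replicate 2.

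PRF1 (ENSCAFG00000014071, chromosome 4, 21498249 to 21500864, minus strand, in the dog genome of Ensembl release 100) encodes perforin, the pore-forming protein without which granzymes do not reach the target cell. PRF1 was at 4.10, 5.46 and 3.84 FPKM in control replicates 1, 2 and 3 and at 15.3, 10.2 and 12.2 FPKM in CPP-Se replicates 1, 2 and 3. Every CPP-Se dog was above every control dog, and the spread within each group was small, with a coefficient of variation of 19.5% in the control and 20.3% in the CPP-Se group. These values rest on 49 to 238 reads per dog, so counting error alone would give about 13.5% and 7.45%. The control mean was 4.47 ± 0.871 FPKM and the CPP-Se mean 12.6 ± 2.55 FPKM (± is the SD over 3 dogs in all that follows). On the log2 scale PRF1 differed by 1.31 (95% interval 0.81 to 1.80, standard error 0.21), with an adjusted p of 0.138 by limma. On the equal-reads scale, PRF1 was at 14.4, 16.8 and 10.8 in CPP-Se replicates 1, 2 and 3, so that replicate 2 was then the highest. By unadjusted p, PRF1 stood at rank 15 of the genes tested, the highest place of any member. When single dogs were omitted, this difference stayed between 1.17 and 1.44.

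The granzymes follow. GZMK (ENSCAFG00000018379, chromosome 4, 60559216 to 60569533, minus strand) encodes granzyme K, a trypsin-like granzyme. It was at 0.920, 1.59 and 1.48 FPKM in the control dogs and at 7.46, 3.35 and 2.11 FPKM in the CPP-Se dogs. The CPP-Se dogs were all higher, but they differed from each other by more than the control dogs did, with CPP-Se replicate 1 far above the others and CPP-Se replicate 3 close to the control range. Scaled to the same reads on genes, GZMK was at 7.05, 5.53 and 1.86 in these dogs, with replicate 2 near replicate 1. The log2 fold change of GZMK was 1.07 (95% interval 0.22 to 1.93, standard error 0.37, adjusted p = 0.239). Without CPP-Se replicate 1 it was 0.67, and without CPP-Se replicate 3 it was 1.39.

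GZMA (ENSCAFG00000006735, chromosome 2, 42490069 to 42498464, plus strand) encodes granzyme A, another trypsin-like granzyme. Its levels were 2.20, 2.07 and 0.224 FPKM in the control dogs and 1.97, 2.25 and 3.72 FPKM in the CPP-Se dogs. The groups overlapped, and the lowest control value came from control replicate 3, from only 3 reads. GZMA differed by 0.64 on the log2 scale (95% interval -0.30 to 1.58, standard error 0.41, adjusted p = 0.491). It was 0.19 without control replicate 3, the lowest value with a dog left out, 1.18 with a pseudocount of 0.1 and 1.35 by limma-voom on the reads. On the equal-reads scale, CPP-Se replicate 2 had the highest GZMA level, 3.72, and the groups still overlapped.

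GZMB (ENSCAFG00000025287, chromosome 8, 4470577 to 4512628, minus strand) carries the symbol of granzyme B, which cleaves caspases in the target cell. The identity of its reads is uncertain. The table describes this gene as cathepsin G, a protease of neutrophil granules, and gives it 7855 bases of length over a long locus, while the RefSeq table of the assembly UU_Cfam_GSD_1.0 lists CTSG and GZMB as separate genes close together on chromosome 8. The deposited table has no other gene named or described as cathepsin G. GZMB was at 2.56, 3.09 and 1.16 FPKM in the control dogs and 4.14, 3.37 and 2.83 FPKM in the CPP-Se dogs. CPP-Se replicate 3 lay within the control range, and the difference on the log2 scale was 0.48 (95% interval -0.17 to 1.14, standard error 0.28, adjusted p = 0.445), the smallest of the members tested. Without control replicate 3 it was 0.21, and by limma-voom on the reads it was 0.73. Scaled to the same reads on genes, CPP-Se replicate 2 had the highest GZMB level, 5.57, and the groups still overlapped. In the neighbouring mast cell protease gene CMA1 (29388 bases away), the levels were 2.15, 0.984 and 2.08 FPKM in the control dogs and 13.6, 4.78 and 8.89 FPKM in the CPP-Se dogs, and whether reads were shared along this protease cluster was not tested.

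CTSW (ENSCAFG00000013168, chromosome 18, 51382122 to 51386261, minus strand) encodes cathepsin W, a papain-family cysteine protease made mainly by NK cells and cytotoxic T cells. It had the highest level of the members, at 10.6, 19.2 and 8.96 FPKM in the control dogs and 25.6, 19.4 and 33.7 FPKM in the CPP-Se dogs. The groups did not overlap, although control replicate 2 and CPP-Se replicate 2 were nearly equal in FPKM. On the equal-reads scale, their CTSW levels were 17.9 and 32.1. CTSW differed by 1.01 on the log2 scale (95% interval 0.28 to 1.73, standard error 0.31, adjusted p = 0.207). With single dogs omitted it lay between 0.80, without control replicate 3, and 1.31, without control replicate 2.

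The unnamed gene described as NKG7, a membrane protein of cytotoxic granules, is ENSCAFG00000042210 (chromosome 1, 105607528 to 105609615, plus strand). The table classes it as a long noncoding RNA. It lies between LIM2 and ETFB. In the RefSeq table, both NKG7 and CLDND2 lie between these genes, so the position does not tell them apart. Its levels were 2.48, 4.53 and 2.23 FPKM in the control dogs and 13.3, 7.92 and 7.17 FPKM in the CPP-Se dogs, without overlap. Its log2 fold change of 1.36 (95% interval 0.67 to 2.04, standard error 0.30, adjusted p = 0.143) was above those of all 8 members tested. The gene ETFB, 896 bases downstream on the same strand, was at 3.62 to 4.44 FPKM in the control dogs and 5.45 to 8.40 FPKM in the CPP-Se dogs, and its part in these values was not tested.

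KLRD1, KLRK1 and KLRB1 lie on chromosome 27 in the NK gene complex, a cluster of lectin-like receptor genes. KLRD1 (ENSCAFG00000013459, 35701185 to 35706720, minus strand) encodes CD94, which pairs with proteins of the NKG2 family. It was at 3.56, 2.54 and 1.01 FPKM in the control dogs and at 7.85, 3.65 and 3.18 FPKM in the CPP-Se dogs, from 5 to 31 reads per dog. CPP-Se replicate 3 lay below control replicate 1. The difference for KLRD1 was 0.80 on the log2 scale (95% interval -0.10 to 1.70, standard error 0.39, adjusted p = 0.363), and it was 0.47 without CPP-Se replicate 1. The inhibitory partner of CD94 is NKG2-A, and a pair of unnamed genes of this cluster are described as NKG2-A/NKG2-B. One of them, ENSCAFG00000028587, had 9, 9 and 1 reads in the controls, against 8, 9 and 5 reads with CPP-Se, and the other, ENSCAFG00000041114, had 1 read in all.

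KLRK1 (ENSCAFG00000025596, 35639280 to 35658882, plus strand) encodes NKG2-D, an activating receptor for stress-induced ligands. Its levels were 0.695, 2.68 and 1.06 FPKM in the control dogs and 5.04, 1.14 and 2.95 FPKM in the CPP-Se dogs. The dogs of the groups were intermixed, with CPP-Se replicate 2 below control replicate 2. For KLRK1 the log2 difference was 0.66 (95% interval -0.36 to 1.68, standard error 0.44, adjusted p = 0.509). It was 0.31 without CPP-Se replicate 1 and 1.06 without CPP-Se replicate 2. The adaptor HCST (DAP10), through which NKG2-D signals, was at 8.59, 16.1 and 7.75 FPKM in the control dogs and 22.9, 15.9 and 20.4 FPKM in the CPP-Se dogs.

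KLRB1 (ENSCAFG00000013612, 36355986 to 36376501, plus strand) encodes CD161, a receptor of NK cells and of some T cells. It was at 0, 0.573 and 0 FPKM in the control dogs and 1.37, 0.767 and 2.63 FPKM in the CPP-Se dogs. This is 0, 5 and 0 reads against 12, 14 and 22 reads, and a count of 0 is taken to allow up to 3 reads, for counting error only. Its levels in control replicate 2 and CPP-Se replicate 2 were within counting error of each other. Its mean of 0.890 FPKM was under the filter. With no filter, its log2 fold change was 1.09 (standard error 0.32, adjusted p = 0.311 by limma).

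NCR3 (ENSCAFG00000030919, chromosome 12, 1086841 to 1089481, minus strand) encodes the activating receptor NKp30. It was at 2.95, 8.98 and 2.89 FPKM in the control dogs and at 10.9, 5.69 and 21.0 FPKM in the CPP-Se dogs. CPP-Se replicate 2 was below control replicate 2, and the other CPP-Se dogs were above all controls. Scaled to the same reads on genes, these 2 dogs were at 9.40 and 8.38, and the groups did not overlap. NCR3 had a large log2 fold change of 1.17 but also the largest standard error of the members, 0.51 (95% interval -0.0018 to 2.34, adjusted p = 0.314). Without CPP-Se replicate 3 the log2 fold change was 0.74, and without control replicate 2 it was 1.62. The gene ENSCAFG00000023691 lies 729 bases away on the other strand and had far higher levels, 237 to 378 FPKM in the control dogs and 113 to 354 FPKM in the CPP-Se dogs. It was lowest in CPP-Se replicate 3, where NCR3 was highest. Whether reads were counted by strand is not stated in the sources used here.

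**Figure D2:**
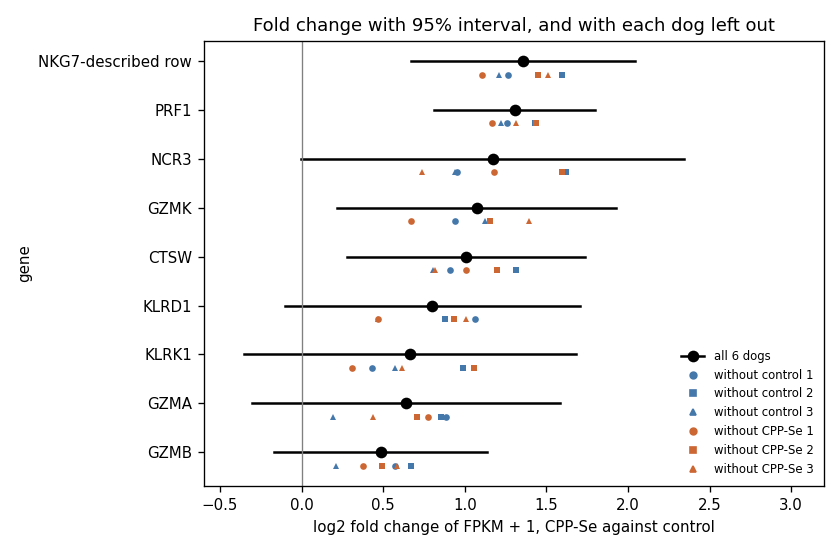
Log2 fold change of FPKM + 1, CPP-Se against control (horizontal axis), for the 8 members tested and the NKG7-described gene, with its 95% interval from limma (black) and the value with each dog left out (coloured markers). All values with a dog left out lie above 0, and the interval excludes 0 for the NKG7-described gene, PRF1, GZMK and CTSW.

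FPKM are per length, so levels may be set side by side between genes. The place of GZMB is uncertain, since its length is 7855 bases, against 617 to 2867 bases for the other members. In the control dogs, CTSW (12.9 ± 5.49 FPKM), NCR3 (4.94 ± 3.50 FPKM) and PRF1 (4.47 ± 0.871 FPKM) had the highest mean levels, and the ranges of each overlapped the next. PRF1 was above KLRD1 (2.37 ± 1.29 FPKM) in every control dog. KLRD1, GZMB, GZMA, KLRK1 and GZMK, between 2.37 and 1.33 FPKM, overlapped from each to the next, and KLRB1 had the lowest mean, with all its values below those of GZMK. In the CPP-Se dogs, CTSW (26.2 ± 7.15 FPKM) was separate from PRF1 (12.6 ± 2.55 FPKM), which overlapped NCR3 (12.5 ± 7.78 FPKM). All lower neighbours overlapped, down to KLRB1 at 1.59 ± 0.949 FPKM. GZMK was in place 8 of 9 in the control group and in place 5 in the CPP-Se group.

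The dogs differed in which members stood out. In the CPP-Se group, replicate 1 had the highest level for 5 of the 9 members (PRF1, GZMK, GZMB, KLRD1 and KLRK1) and replicate 3 for the other 4 (GZMA, KLRB1, CTSW and NCR3). CPP-Se replicate 2 was highest in 0 of them in FPKM, and in 4 (PRF1, GZMA, GZMB and CTSW) when the dogs were scaled to the same reads on genes, which left 3 to replicate 1 and 2 to replicate 3. In the control group, replicate 2 was highest for 7 of the 9, and replicate 1 for GZMA and KLRD1. Averaged over the 8 members tested, log2(FPKM + 1) deviated from the mean of each gene by -0.48, -0.006 and -0.85 in control replicates 1, 2 and 3 and by 0.75, 0.09 and 0.50 in CPP-Se replicates 1, 2 and 3. Control replicate 2 and CPP-Se replicate 2 thus lay next to each other in FPKM. Scaled to the same reads on genes they were at -0.15 and 0.62, and CPP-Se replicate 2 was next to CPP-Se replicate 1, at 0.61. The variation among dogs of 1 group was often larger than counting error. For KLRK1 the coefficient of variation was 71.3% in the control group, against 30.6% from counting, and for NCR3 in the CPP-Se group it was 62.2% against 13.0%.

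**Figure D3:**
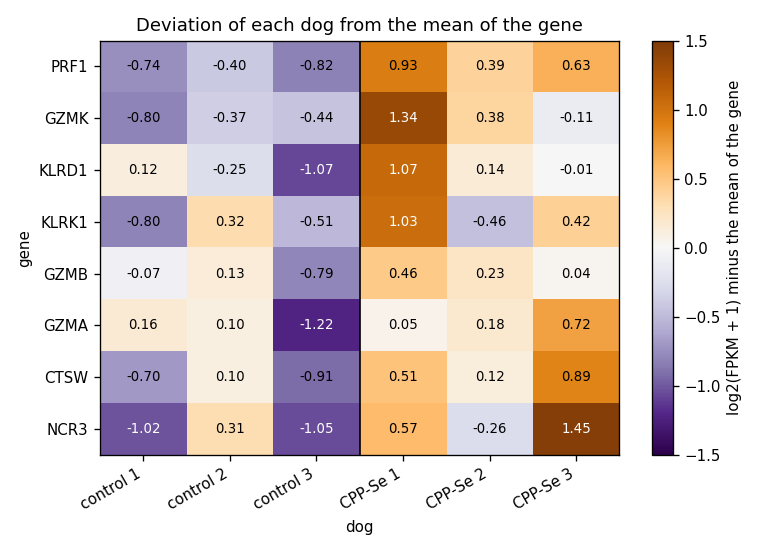
Deviation of log2(FPKM + 1) from the mean of each gene (colour and number in each cell) for the 8 members tested (rows) in the 6 dogs (columns), with the groups separated by a line. CPP-Se replicate 1 is highest for PRF1, GZMK, KLRD1, KLRK1 and GZMB, CPP-Se replicate 3 is highest for GZMA, CTSW and NCR3, and control replicate 3 has the lowest value for PRF1, KLRD1, GZMB, GZMA, CTSW and NCR3.

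The other genes of the pathway did not all share this direction. Among stored or secreted effectors outside the members, 6 genes were tested. The CPP-Se mean was above the control mean in 2 of them and below it in 4, and 0 were called. Fas ligand (FASLG), the granule-independent killing signal, was at 0.617 to 1.07 FPKM in the control dogs and 1.46 to 1.89 FPKM in the CPP-Se dogs, without overlap, and the log2 difference was 0.62 (standard error 0.24, adjusted p = 0.278 by limma). With a control mean of 0.782 FPKM, FASLG passed the filter only through the CPP-Se dogs. Serglycin (SRGN), the proteoglycan that packs granule proteases and is also abundant in neutrophils and monocytes, had the opposite sign, with a control mean of 372 ± 82.3 FPKM and a CPP-Se mean of 181 ± 24.9 FPKM. The log2 difference was -1.03 with a standard error of 0.24 (adjusted p = 0.144 by limma). LAMP1, a membrane protein of lysosomes and granules in most cells, had a log2 fold change of -0.46, and TNFSF10 had one of -0.28.

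The machinery of granule release is shared by many secretory cells. Of its 8 genes, all tested, 2 were higher and 6 lower, and 3 of the lower ones had an unadjusted p under 0.05, beside 9.10% of all genes. The median log2 fold change was -0.18. When the dogs were scaled to the same reads on genes, 4 were higher and 4 lower. The largest differences on the log2 scale were those of the fusion proteins SNAP23 (-0.82) and STX11 (-0.64), the granule size regulator LYST (-0.56) and the sorting adaptor AP3B1 (-0.28). None of the 8 was called, and the lowest adjusted p was 0.241 by limma.

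Of 9 tested receptors and adaptors outside the members, 6 were higher and 3 lower, with a median log2 fold change of 0.12. For HCST the log2 difference was 0.86 with a standard error of 0.29 (adjusted p = 0.224), and for CD96, a receptor of T and NK cells, it was 0.78. The control mean of CD96 was 0.787 FPKM, so it passed the filter only through its level in the CPP-Se dogs. FCER1G, an adaptor shared with myeloid cells, differed by -0.52 and the adaptor SH2D1B by -0.73. The regulators and homing genes of cytotoxic lymphocytes were higher in 12 of 15 cases, 6 of them with an unadjusted p under 0.05 (beside 6.87% of all genes), and their median log2 fold change was 0.45. At the same cut, 2 of the 15 were lower (beside 9.10%). TBX21, the transcription factor T-bet that drives perforin and granzyme expression, was at 3.28, 6.49 and 3.03 FPKM in the control dogs and 18.1, 11.4 and 12.7 FPKM in the CPP-Se dogs. These differed by 1.55 in log2 (standard error 0.29, adjusted p = 0.138). The transcription factor ZNF683 (Hobit) differed by 1.22, and the chemokines CCL5 and CCL4, which cytotoxic cells secrete, by 1.95 and 1.85. ZNF683, which is among the 6 above, had a control mean of 0.503 FPKM and passed the filter only through the CPP-Se dogs. CCL4 was at 0.854 to 1.36 FPKM in the control dogs and at 3.60 to 9.10 FPKM with CPP-Se, while the values of CCL5 overlapped between the groups. In the opposite direction, IL18RAP and IL18R1, the subunits of the receptor for interleukin-18, differed by -1.14 and -0.77. None of the genes in this list was called.

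The overlap of these companion genes depended on the scaling of CPP-Se replicate 2. Of the 81 genes tested in all pathway and cell marker lists together, 19 were higher and 18 lower without overlap in FPKM, beside 10.4% and 12.6% of all genes tested. On the equal-reads scale, 22 were higher, beside 9.72% of all genes tested, and 6 lower, beside 2.91%. HCST, CCL5 and CD96 were among 7 genes that became higher without overlap. SRGN and IL18R1 came to overlap, with SRGN at 341 in CPP-Se replicate 2 beside 321 to 480 in the control dogs. TBX21, CCL4, FASLG and IL18RAP did not overlap under either scaling.

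Markers of other blood cells are given beside the members, and none of them was called. Of 11 tested T cell genes, 9 were higher and 2 lower, with a median log2 fold change of 0.53, and 4 were higher and 1, CD4, lower at an unadjusted p under 0.05, beside 6.87% and 9.10% of all genes. CD6 (1.23), CD3D (1.11), CD3E (0.89) and CD28 (0.74) had the largest log2 fold changes. CD3D, a chain of the T cell receptor complex, was at 6.93 to 7.78 FPKM in the control dogs and 12.4 to 22.5 FPKM in the CPP-Se dogs. CD4 had the opposite sign, with 849 to 1256 FPKM against 613 to 796 FPKM, and canine neutrophils carry CD4 as well as T cells. The summed level of the T cell genes, most of it CD4, was 1010 to 1340 FPKM in the control dogs and 826 to 965 FPKM in the CPP-Se dogs.

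All 8 B cell genes were higher, with a median of 0.64, and their summed level was 278 to 398 FPKM in the control dogs and 426 to 467 FPKM in the CPP-Se dogs. CD22 (0.89), CD79B (0.75) and BLK (0.66) were among the largest log2 fold changes of this list. All 6 tested monocyte genes were lower, with a median of -0.93 and a summed level of 327 to 445 FPKM against 215 to 235 FPKM. VCAN (-1.46), CLEC4E (-1.41), CSF1R (-0.97) and CD163 (-0.89) led them. Of 6 tested neutrophil genes 5 were lower, with CXCR2 and MMP8 both at -1.21 and CSF3R at -0.89, and the summed level was 2039 to 2760 FPKM in the control dogs and 1600 to 2086 FPKM in the CPP-Se dogs. The exception was MMP9 (1.35, standard error 1.14), with 729, 23.7 and 540 FPKM in CPP-Se replicates 1, 2 and 3.

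The 3 tested platelet genes, PPBP (0.18), ITGA2B (-0.47) and GP1BB (0.13), all overlapped, with summed levels of the list of 611 to 1375 FPKM and 444 to 1696 FPKM. Of 6 tested red cell genes, 3 were higher and 3 lower (5 and 1 when scaled to the same reads on genes), led by SLC4A1 (1.02), AHSP (0.92), GYPC (-0.63) and EPB42 (0.31). Their summed levels of 6007 to 13024 FPKM in the control dogs and 6447 to 11066 FPKM in the CPP-Se dogs overlapped. The mast cell proteases CMA1 and CPA3 differed by 1.81 and 1.69 and eosinophil IL5RA by -0.70, with summed levels of that list of 2.56 to 5.66 FPKM and 5.85 to 22.9 FPKM. CPA3 was at 6.71, 0.173 and 8.19 FPKM in CPP-Se replicates 1, 2 and 3, so its value rests on 2 of the 3 dogs. With a control mean of 0.355 FPKM, CPA3 passed the filter only through those 2 dogs. Scaled to the same reads on genes, the summed B cell, monocyte, T cell and neutrophil levels all overlapped between the groups, while the signs of the list medians stayed as in FPKM. The part of the cell mix in the members' levels was not tested.

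**Figure D4:**
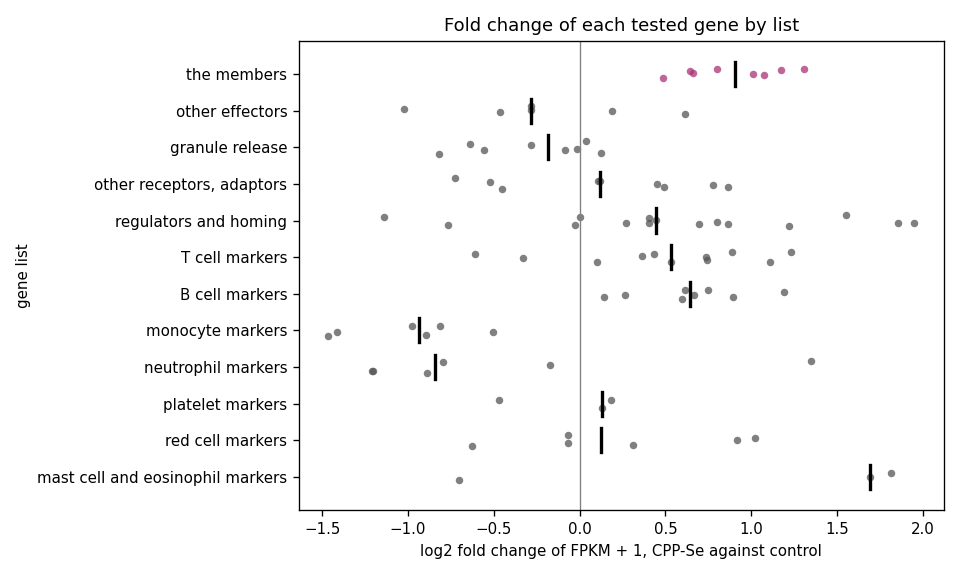
Log2 fold change of FPKM + 1, CPP-Se against control (horizontal axis), of each tested gene (points, spread vertically at random) in the members and the companion lists (rows), with the median of each list as a black bar. The members (median 0.90) lie above 0 throughout, the effector and granule release lists have medians of -0.28 and -0.18, and the monocyte and neutrophil markers lie mostly below 0.

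The members were also set against the T cell genes of the same dog, as a description without a test. With all 11 T cell genes as the reference, CD4 made up most of their mean, and 7 of the 9 members had ratios that did not overlap between the groups. This reference was itself lower in every CPP-Se dog, at 75.1 to 87.7 FPKM against 91.8 to 122 FPKM, and 26.7% of all genes tested had higher ratios without overlap. The lower reference holds in FPKM, since CPP-Se replicate 2 had a reference of 145, above all controls, when scaled to the same reads on genes, although a ratio within a dog does not change with the scaling. CD4 was then left out, a choice made after seeing its values, which gave a reference that was higher in every CPP-Se dog, at 16.9 to 23.5 FPKM against 8.35 to 16.1 FPKM. The ratio then did not overlap for 2 of the 9, PRF1 and KLRB1, and for 0.569% of all genes tested. PRF1 was at 35.0%, 34.0% and 45.9% of the mean level of the 10 remaining T cell genes in the control dogs and at 76.6%, 60.3% and 52.0% in the CPP-Se dogs. KLRB1 was at 0%, 3.57% and 0% in the control dogs and at 6.88%, 4.54% and 11.2% in the CPP-Se dogs. The NKG7-described gene did not overlap either, with 21.2% to 28.2% in the control dogs and 30.5% to 66.9% in the CPP-Se dogs. For CTSW the ratio was 106% ± 14.8 in the control group and 129% ± 14.1 in the CPP-Se group, and for GZMK 11.8% ± 5.18 and 22.1% ± 14.4, each with overlap. The mean ratio of GZMB was slightly lower in the CPP-Se group, 17.6% ± 4.83 against 18.3% ± 4.06. With the median over all 11 T cell genes as the reference, 3 of the 9 did not overlap, PRF1, KLRB1 and CTSW, beside 1.03% of all genes tested. PRF1 and KLRB1 were thus separate between the groups under all 3 references. KLRB1 was under the filter, so it is outside the shares of all genes tested. Its nearest dogs were control replicate 2, with 5 reads, and CPP-Se replicate 2, with 14 reads. Counting error alone allows 0.186 to 1.34 FPKM in the first and 0.420 to 1.29 FPKM in the second. The gap between these dogs in KLRB1 is therefore within counting error.

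**Figure D5:**
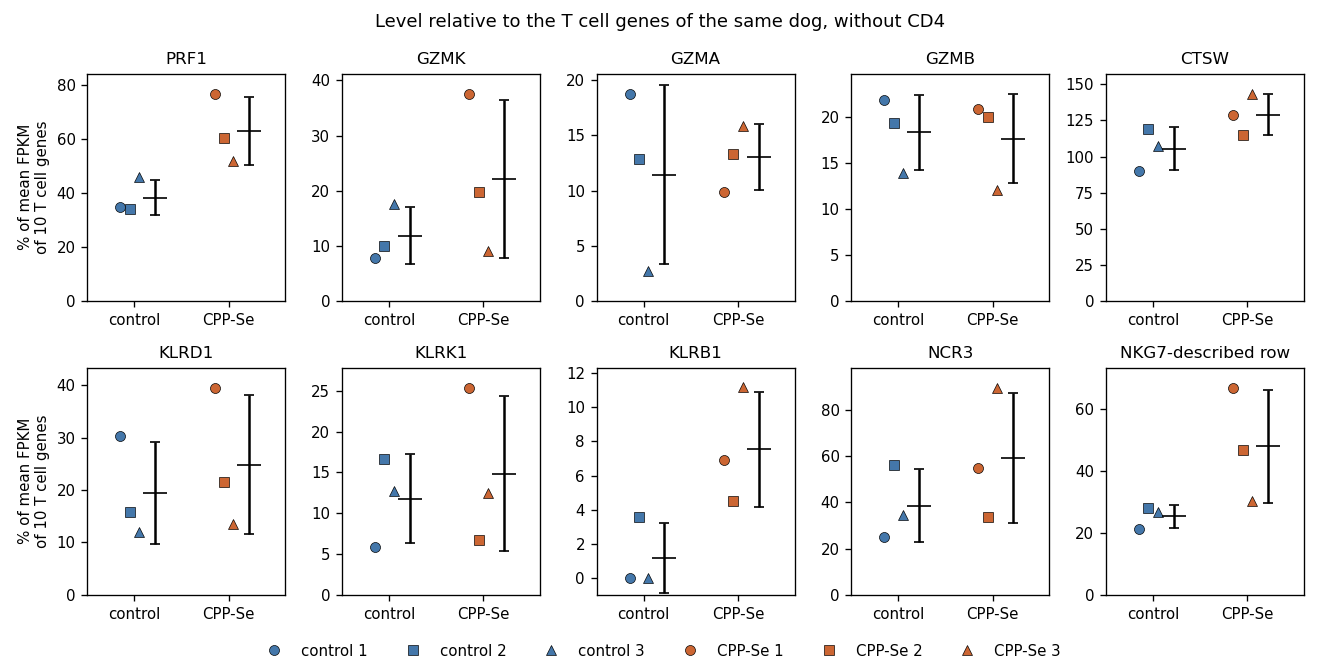
Level of each member and of the NKG7-described gene as a percentage of the mean FPKM of 10 T cell genes (CD4 left out) in the same dog (vertical axes, each with its own scale), for the 3 control dogs (blue) and the 3 CPP-Se dogs (orange), with the group mean ± SD beside the points. PRF1, KLRB1 and the NKG7-described gene show no overlap between the groups, KLRB1 by a gap within counting error, and GZMB shows nearly equal means.

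The genes whose pattern over the 6 dogs was most like the mean pattern of the 8 members were found by the root mean square difference of log2(FPKM + 1), each gene centred on its own mean. Among the 8 nearest genes with a symbol were SEMA4F (0.081), ZNF428 (0.103), HCST (0.115), IL2RB (0.123), LY6E (0.126), CHST7 (0.130) and CD27 (0.130). IL2RB is the interleukin-2 and interleukin-15 receptor chain carried by NK and T cells, and CD27 is a costimulatory receptor of lymphocytes. The members themselves lay farther from their own mean, from 0.211 for CTSW to 0.499 for NCR3. This search ran over all genes tested with a symbol and is a description of these 6 libraries.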

How the data were processed

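Whole blood RNA of 3 control and 3 CPP-Se dogs, 1 library per dog, was compared. Per the submitters' processing notes and the study's methods, reads were filtered with fastp 0.19.7, aligned with HISAT2 2.0.5 (dog genome, Ensembl release 100) and counted with featureCounts 1.5.0-p3, and the authors deposited FPKM per gene. Multiplied by gene length, 100% of the values were whole multiples of 1 step per library (within 0.01 reads), which gave the reads. With 3 dogs per group and few reads, precision is low.

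Genes averaging 1 FPKM or more were fitted on log2(FPKM + 1) with lmFit and eBayes with a trend (R 4.3.3, limma 3.58.1), two-sided, with Benjamini-Hochberg adjustment over all genes tested. The pseudocount of 1 lowers the fold changes of rare genes. Tables and figures used Python 3.11.15, pandas 2.3.3 and matplotlib 3.10.9. The fit was checked on simulated data whose changes were larger than those of the members tested, so the check does not cover differences of their size. Dogs were grouped by their titles.

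The members, lists and tests were chosen with earlier results of these data known. Named are all members, the 4 largest changes of each list, some genes without overlap and the 8 genes of most similar pattern. NCR1, KLRF1 and the neighbours of members were picked after their values were seen. Of the genes this rule names, 2 are not reported here. Genes of the lists without a symbol in the table were not used here. Alternatives were other pseudocounts, filters, scalings (1 of them, and the T cell reference without CD4, chosen after seeing the data) and eBayes settings, limma-voom on the reads, a replicate block and each dog left out. Nothing but the group and dog number separates the samples in the labels, so no batch could be examined.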

Additional observations from a re-analysis of the deposited data

How the results depend on the processing

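All 8 members tested kept a higher level in the CPP-Se group under all 17 alternatives, and 0 were called under any of them (limma, with 3 to 5 members at an unadjusted p under 0.05). Their lowest adjusted p was 0.0904, for PRF1 with limma-voom on the recovered reads, which gave log2 fold changes of 1.47 for PRF1 and 1.35 for GZMA. The number of members higher at an unadjusted p under 0.05 was 3, and 5 when all dogs were scaled to the same total FPKM, to the same total without hemoglobin genes or to the same reads on genes (NCR3 and KLRD1 added), beside 6.87%, 6.67%, 9.04% and 5.93% of all genes under these 4 scalings. The last of these was chosen after seeing the data. These scalings moved the median log2 fold change of all genes to 0.13, 0.12 and 0.12 and the share of higher genes at an unadjusted p under 0.05 from 43.0% to 71.3%, 69.9% and 69.9%. With a dog left out, the number of such members was 3 to 5 beside 4.34% to 7.76% of all genes, with 5 without CPP-Se replicate 2 beside 6.76%. GZMK missed an unadjusted p under 0.05 without control replicate 1 alone.

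Over all genes, 3 were called, against 0 with a pseudocount of 0.1 or without a filter, 12 with the same total FPKM (8 higher), 23 with the same reads on genes (16 higher), 1 with limma-voom, 1 with the replicate block, and 0 to 14 with a dog left out (14 without CPP-Se replicate 2, of which 9 were higher). Of the companion genes, 0 were called, against 2 with the same total FPKM or the same reads on genes (CMA1 and CCL4 in both) and 0 to 3 with a dog left out (MMP9, CCL4 and CPA3 without CPP-Se replicate 2), and 39 of 81 had an unadjusted p under 0.05 beside 16.0% of all genes, against 23 to 38 with a dog left out (23 without control replicate 1, beside 9.76%). Members without overlap relative to the T cell genes numbered 7, beside 26.7% of all genes tested. They numbered 3 with the median of these genes (beside 1.03%) and 2 without CD4 (beside 0.569%). Each of these counts includes KLRB1, which was under the filter and is outside the shares. With a dog left out, members without overlap numbered 7 to 9. Separation is then easier for any gene, and the share of all genes was not counted.

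The labels number the dogs 1 to 3 in each group but do not say that a number pairs dogs, and the deviations of same-numbered dogs had correlations across genes of -0.0900 to 0.0165. With the replicate block, 4 members had an unadjusted p under 0.05 in place of 3, with KLRD1 added, beside 6.19% of all genes that were higher. Depth limits KLRD1, KLRB1, KLRK1 and GZMA most.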
